A study of Mus musculus with 18 samples.

Results

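Gene expression was compared between 2 kinds of mouse medulloblastoma in which the altered Hedgehog gene was named as Smo, GFD-Smo tumours made with GFAP-cre and NG-Smo tumours made with Atoh1-CreER. Arrays were taken by the group in their title, which gave 4 GFD-Smo and 4 NG-Smo arrays, 8 of the 18 in the series, and 19938 genes were tested on them. The other 10 arrays were tumours of Ptch mice, namely GFD-Ptch (n = 2), GFI-Ptch (n = 4, 1 of them grown in an NSG female host) and NG-Ptch (n = 4). The labels do not explain the subtype names GFD, GFI and NG. The form of the Smo allele, the timing of tamoxifen, the strain and the age of the mice are not given in the sources used here. The subtype and the Cre driver split the 8 arrays in the same way, so their effects cannot be told apart. The labels do not say that replicates came from separate animals, so the p-values measure the spread between these samples only.

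Hedgehog signalling is held back by the receptor Ptch1, which restrains the membrane protein Smo. When Smo is active, the Gli transcription factors switch on targets such as Gli1 and Hhip, and granule neuron progenitors of the cerebellum keep dividing. Atoh1-CreER is a Cre recombinase that tamoxifen makes active, driven by a gene of granule neuron progenitors, whereas GFAP-cre acts in radial glia and in the neural progenitors and astrocytes that descend from them. GFAP-cre can therefore act in more kinds of brain cell than Atoh1-CreER. In a piece of bulk tumour, fewer cells of a type and less RNA per cell cannot be told apart.

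Values are levels on a log2 scale for 1 probe set per gene, with means ± SD over 4 arrays a group. A change is the GFD-Smo mean minus the NG-Smo mean, so that 1 is a doubling, and SE is its standard error. Genes with an adjusted p under 0.05 by limma, adjusted over all genes, are referred to as called. GFD-Smo arrays were closely alike, with correlations across genes of 0.9949 to 0.9983 between arrays, against 0.9812 to 0.9892 among NG-Smo arrays. GFD-Smo replicates 1 and 3 were the closest pair. The SD of their difference was 0.1132, and it was 0.1748 to 0.1989 in the other GFD-Smo pairs. Y-linked transcripts went against the gender label in 2 GFD-Smo arrays. Replicate 2, labelled female, had a mean Y-linked level of 10.05, and replicate 3, labelled male, had one of 5.48. The NG-Smo arrays with a female or male label matched it.

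Both groups carried the markers of the labelled tumour. Atoh1, the transcription factor that defines granule neuron progenitors, was at 11.83, 11.83, 11.80 and 12.14 in GFD-Smo tumours and at 11.80, 11.80, 12.49 and 12.43 in NG-Smo tumours. The ranges overlapped, and the change of -0.23 did not pass the test (SE 0.20, adjusted p = 0.716). Barhl1, another transcription factor of this lineage, averaged 11.57 ± 0.16 in GFD-Smo and 11.18 ± 0.19 in NG-Smo tumours, and its change of 0.39 did not pass by limma (SD, n = 4 each, adjusted p = 0.101). Of the 19 measured granule neuron progenitor genes, Meis2 was called higher (1.0, adjusted p = 0.00228) and Nhlh1 lower (-0.27, adjusted p = 0.0354), 10.5% against 5.31% of all genes.

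Called genes made up 5.31% of those tested, or 1058 genes, of which 561 (2.81%) were higher and 497 (2.49%) lower in GFD-Smo tumours. At least a doubling or halving was seen in 204 of them (1.02%), 141 higher and 63 lower. The groups did not overlap in 1006 of the called genes and in 2508 of all genes (12.6%), with all GFD-Smo arrays above in 5.99% and below in 6.59%. They lay above all 14 other arrays of the series in 593 genes (2.97%) and below all of them in 457 (2.29%). Leaving out GFD-Smo replicate 1, 2 or 3 lowered the count of calls to 672, 643 or 666. Averaging replicates 1 and 3 into 1 array gave 672, a setting added after the data were seen.

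**Figure D1:**
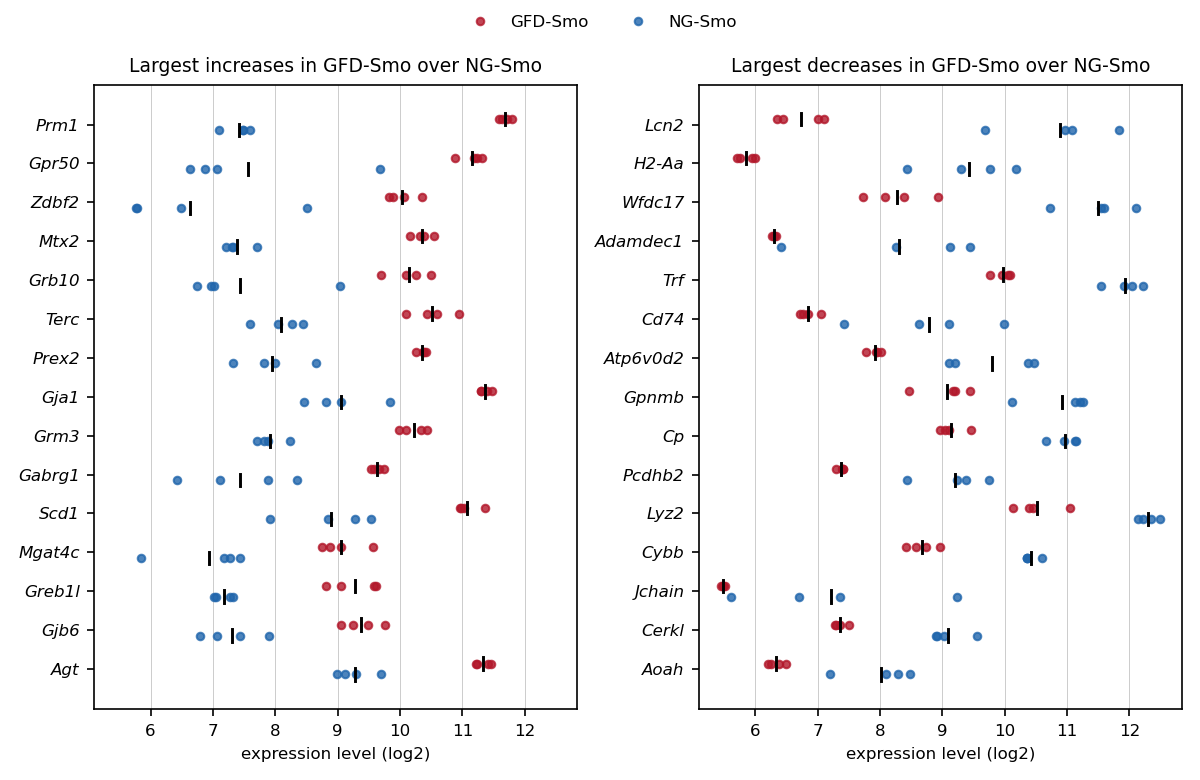
Level (log2, horizontal axis) in each GFD-Smo array (red, upper row of a gene) and each NG-Smo array (blue, lower row) of the 15 largest increases (left) and 15 largest decreases (right) named by rule. Points are arrays and black bars are group means, and the groups do not overlap in any of these 30 genes, as the rule required. For Adamdec1 and Jchain, NG-Smo replicate 2 lies just above the GFD-Smo arrays, at 6.42 and 5.61.

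A few Hedgehog genes differed between the groups. Of 19 measured Hedgehog pathway genes 2 were called higher and 1 lower, against 2.81% and 2.49% of all genes, with a median change of 0.02. The counts were 1 to 3 higher and 0 to 2 lower over the alternatives. Gli3 (probe set 10403727, chromosome 13), the Gli factor that mainly represses targets, was at 8.54, 8.49, 8.60 and 8.66 in GFD-Smo and at 6.63, 7.29, 6.31 and 6.73 in NG-Smo tumours. Every GFD-Smo array was above every NG-Smo array, and also above all 10 Ptch arrays, which lay between 6.35 and 7.72. The change was 1.83 (SE 0.23, adjusted p = 0.000262), a 3.56-fold higher level.

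Hhip, a decoy receptor that binds Hedgehog ligand and is itself a target, stood at 10.80, 10.91, 10.78 and 11.03 in GFD-Smo tumours and at 9.62, 9.97, 9.98 and 9.38 in NG-Smo tumours. The ranges did not touch, and the change was 1.14 (SE 0.28, adjusted p = 0.0228). The call is not firm, since it was lost in 7 of 27 alternatives, with adjusted p between 0.0518 and 0.0639 in those 7. Gli1, the target most used as a readout of the pathway, averaged 10.41 ± 0.07 in GFD-Smo and 10.06 ± 0.23 in NG-Smo tumours, and its change of 0.36 did not pass (SE 0.15, adjusted p = 0.218). Its GFD-Smo arrays all lay above the NG-Smo arrays, as in 5.99% of all genes. Gli1 was called in 2 of 27 alternatives, without the transplanted tumour and with array weights. Ptch1 had a change of 0.19 (adjusted p = 0.852), Gli2 one of -0.06 (adjusted p = 0.946) and Mycn, a driver of progenitor division, one of 0.13 (adjusted p = 0.754). Ccnd2, a cyclin that moves progenitors through G1, was lower at 12.17, 12.34, 12.13 and 12.22 in GFD-Smo, against 12.66, 12.66, 12.87 and 13.11 in NG-Smo tumours (change -0.61, SE 0.11, adjusted p = 0.0046). Smo itself averaged 11.31 ± 0.10 in GFD-Smo and 11.58 ± 0.20 in NG-Smo tumours (change -0.27, adjusted p = 0.298), and the position of its probes within the transcript was not used here.

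Smo, Ccnd2 and Atoh1 lie on chromosome 6 in the RefSeq annotation of GRCm38.p6, and genes of that chromosome were lower together in GFD-Smo tumours. This was noticed after the data were seen and was not tested. The median deviation of its 562 brighter genes from their mean over all arrays was -0.27, -0.27, -0.27 and -0.28 in the 4 GFD-Smo arrays, against 0.03, -0.00, -0.02 and -0.03 in the NG-Smo arrays. Of these genes 482, or 85.8%, had a change below 0. Chromosome 6 held 5.512% of the genes and 145 of the 497 lower calls, or 29.18%. Of all 1099 tested genes on it, 13.2% were called lower and 10 genes higher. The shift ran along the whole chromosome, with medians of -0.31 to -0.24 in 5 consecutive blocks of genes from Samd9l to Resf1. On the same chromosome the GFD-Ptch arrays deviated by 0.32 and 0.17, the NG-Ptch arrays by 0.02 to 0.19 and the GFI-Ptch arrays by -0.02 to 0.22.

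**Figure D2:**
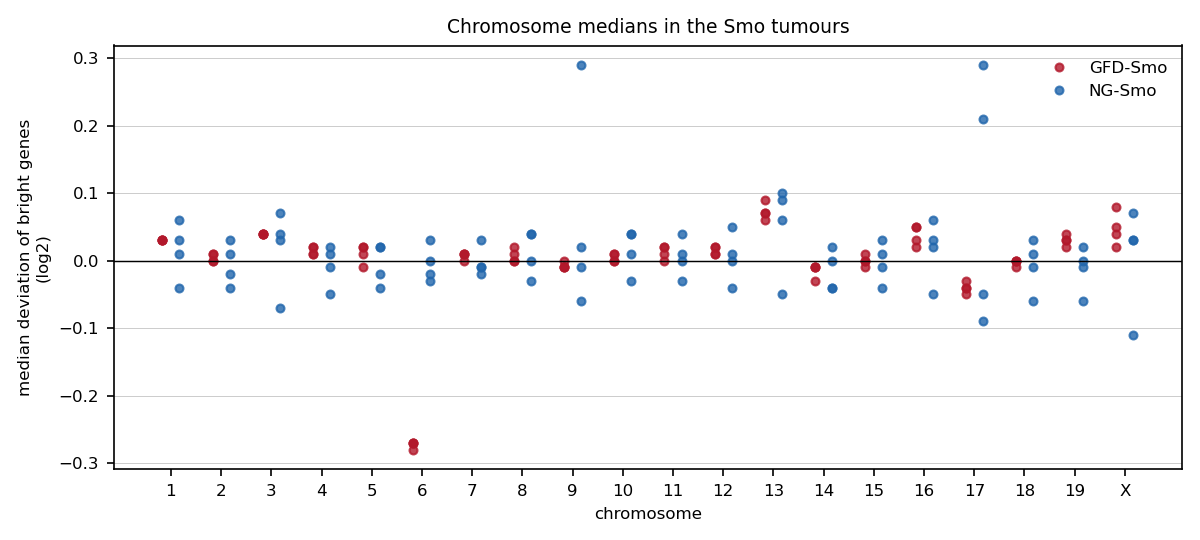
Median deviation of the brighter genes of each chromosome from their mean over all 18 arrays (log2, vertical axis) in the 4 GFD-Smo arrays (red) and the 4 NG-Smo arrays (blue). On chromosome 6 the GFD-Smo arrays sit at -0.28 to -0.27 and the NG-Smo arrays at -0.03 to 0.03. NG-Smo replicate 2 is high on chromosomes 9 and 17, and replicate 3 on chromosome 17.

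NG-Smo arrays had shifts of their own. Replicate 2 deviated by 0.29 on chromosome 9 and by 0.21 on chromosome 17, and replicate 3 by 0.29 on chromosome 17. No DNA was measured in the files used here, and whether gene dosage differed was not tested. With each array's chromosome medians subtracted, a setting added after the data were seen, 734 genes were called higher and 377 lower.

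Astrocyte genes were the group with the largest share of calls. Of 19 measured members 11 were higher and 0 lower, 57.9% against 5.31% of all genes, with a median change of 1.05. The sum over the list, on the log2 scale, was 15.53 to 15.59 in GFD-Smo arrays and 14.20 to 14.60 in NG-Smo arrays. The amino acid transporter Slc7a10 (probe set 10552143, chromosome 7) had the smallest adjusted p of the list. It was at 9.45, 9.70, 9.65 and 9.51 in GFD-Smo and at 7.90, 8.09, 7.78 and 8.04 in NG-Smo tumours, ranges far apart (change 1.62, SE 0.14, adjusted p = 1.23e-05).

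Gfap, the intermediate filament gene whose promoter drives the Cre of the GFD-Smo tumours, was at 11.21, 10.65, 10.62 and 11.10 in GFD-Smo and at 9.60, 9.82, 9.85 and 9.87 in NG-Smo tumours. The groups were separate (change 1.11, SE 0.26, adjusted p = 0.0188), and the call was lost when single arrays were left out, in 3 alternatives with adjusted p of 0.0529 to 0.0668.

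Gja1 and Gjb6, which form the gap junctions between astrocytes, were both among the 15 largest increases. Gja1 was at 11.47, 11.29, 11.30 and 11.39 in GFD-Smo tumours and at 9.84, 9.06, 8.82 and 8.46 in NG-Smo tumours. The water channel Aqp4 was at 12.36, 12.19, 12.35 and 12.37 in GFD-Smo tumours and at 10.41, 10.37, 10.49 and 10.45 in NG-Smo tumours. Neither gene's ranges came close, and both groups were narrow for Aqp4. The glutamine synthetase gene Glul (0.81, adjusted p = 0.0179), the secreted Sparcl1 (1.05, adjusted p = 0.0212) and Cbs, an enzyme of sulphur amino acids (0.56, adjusted p = 0.00381), were smaller increases in the same list. The bicarbonate transporter Slc4a4 had a change of 2.06 that missed the threshold (SE 0.59, adjusted p = 0.0577), and Aldoc, a glycolytic enzyme, one of 1.98 that also missed it (adjusted p = 0.112), with NG-Smo arrays spread from 9.88 to 12.30.

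Other genes among the 15 largest increases, outside the astrocyte list, were receptors, enzymes and secreted proteins. Grm3, a metabotropic glutamate receptor, was at 10.10, 10.44, 10.34 and 9.99 in GFD-Smo and at 8.23, 7.82, 7.71 and 7.88 in NG-Smo tumours (change 2.31, SE 0.22, adjusted p = 2.6e-05). Agt, the precursor of angiotensin, was at 11.41, 11.21, 11.46 and 11.23 in GFD-Smo and at 9.12, 9.29, 9.70 and 8.99 in NG-Smo tumours (change 2.05, SE 0.40, adjusted p = 0.00632). The ranges of both genes were separate. Others were Gabrg1, a subunit of the GABA-A receptor (2.19, adjusted p = 0.00109), Prex2, an exchange factor that activates Rac (2.41, adjusted p = 0.000468), and Scd1, which desaturates fatty acids (2.19, adjusted p = 0.0121).

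Radial glial and stem cell genes were mostly higher in GFD-Smo tumours, and few were called. Changes were above 0 in 16 genes and below 0 in 3. The summed level was 15.38 to 15.47 in GFD-Smo and 14.80 to 15.18 in NG-Smo arrays. Of 19 measured members 3 were higher and 0 lower (15.8% against 5.31% of all genes), with a median change of 0.42. The count was 3 to 6 over the alternatives. Id4, an inhibitor of neuronal differentiation factors, was at 9.15, 9.23, 9.37 and 9.09 in GFD-Smo and at 7.89, 7.36, 7.53 and 7.70 in NG-Smo tumours (change 1.59, SE 0.19, adjusted p = 0.000145). Hopx, a homeodomain-only protein of stem cells and astrocytes, rose by 1.23 (adjusted p = 0.000287), and the transcription factor Pax3 rose by 1.26 (adjusted p = 0.0067). Both sets of GFD-Smo values lay above all NG-Smo values. The stem cell factor Sox2 was at 9.90, 10.17, 9.95 and 10.40 in GFD-Smo and at 8.38, 10.08, 9.60 and 8.87 in NG-Smo tumours, with overlap, and its change of 0.87 did not pass (SE 0.43, adjusted p = 0.358).

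Genes of neurons and of the oligodendrocyte lineage gave 0 calls in 4 lists, by limma over all genes. These were the 22 genes of differentiated neurons (median change 0.10), the 14 of Purkinje cells and interneurons (0.58), the 12 of oligodendrocyte progenitors (0.10) and the 12 of oligodendrocytes (-0.13). At an unadjusted p under 0.05 there were 2 genes of differentiated neurons, 8 of Purkinje cells and interneurons, 2 of oligodendrocyte progenitors and 0 of oligodendrocytes, against 15.9% (3174) of all genes. Levels of Purkinje cell genes depended on the array. Calb1, a calcium-binding protein of Purkinje cells, was at 10.61, 10.04, 10.51 and 6.48 in GFD-Smo and at 9.33, 6.0, 7.11 and 6.02 in NG-Smo tumours. GFD-Smo replicate 4 was within the range of the NG-Smo arrays, and NG-Smo replicate 1 was high for its group. Car8, another Purkinje cell gene, was at 10.85, 10.50, 10.92 and 8.77 in GFD-Smo and at 9.59, 7.99, 8.91 and 8.72 in NG-Smo tumours. How much cerebellum was taken with the tumours, and its part in these levels, was not tested. Olig2, a transcription factor of oligodendrocyte progenitors, averaged 10.18 ± 0.20 in GFD-Smo and 9.95 ± 0.53 in NG-Smo tumours (change 0.23, adjusted p = 0.803).

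Levels of a choroid plexus marker also depended on the array. Ttr, the transthyretin gene that marks this tissue, was at 6.56, 12.70, 6.48 and 6.48 in GFD-Smo and at 11.15, 6.34, 6.31 and 6.67 in NG-Smo tumours, high in 1 array of either group. Clic6, a chloride channel protein that choroid plexus also expresses, was the 1 called gene of 8 (12.5% against 5.31% of all genes). It was at 9.05, 9.76, 9.18 and 9.40 in GFD-Smo and at 7.13, 8.0, 7.09 and 7.90 in NG-Smo tumours (change 1.82, SE 0.31, adjusted p = 0.00262). It was thus high also in the 3 GFD-Smo arrays where Ttr was near the bottom of its range.

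**Figure D3:**
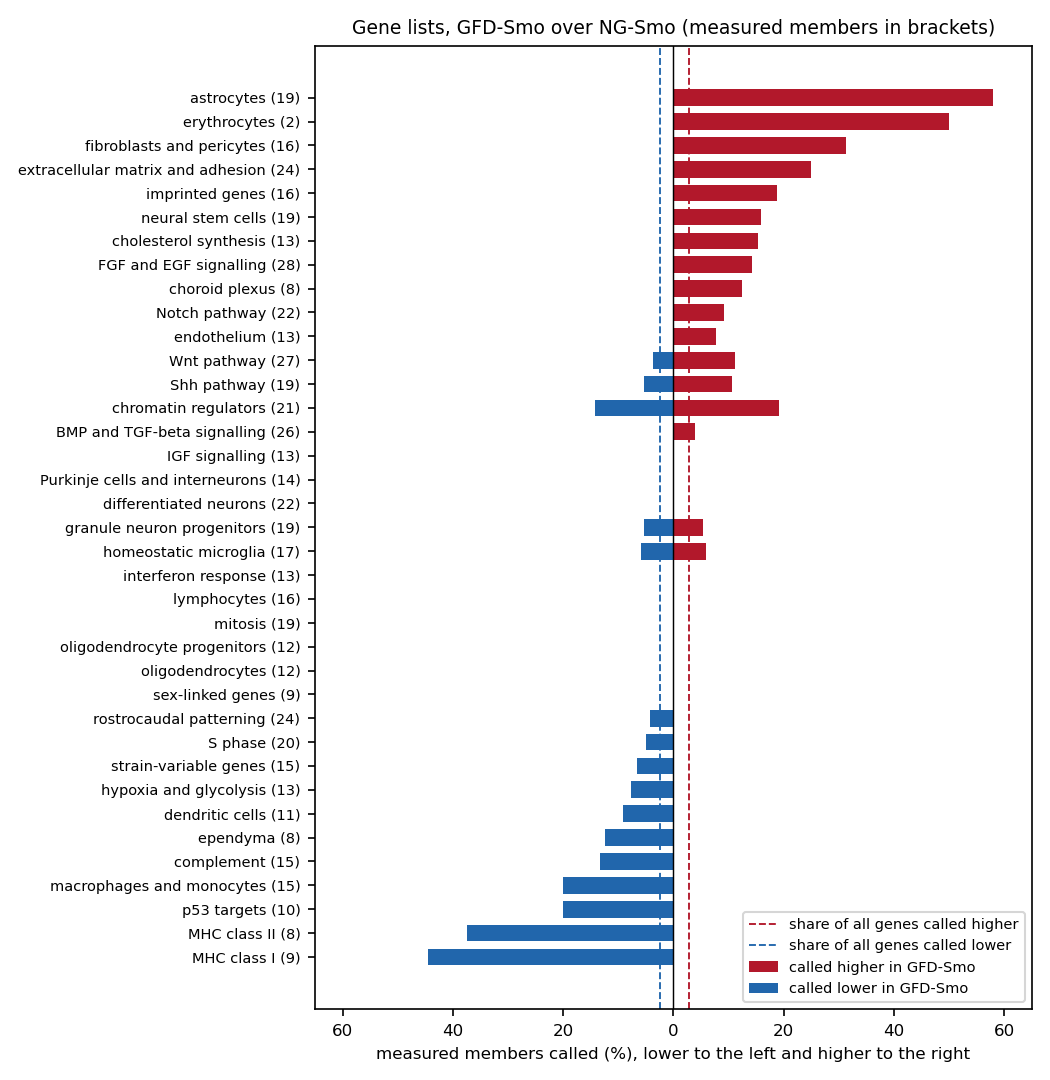
Share of the measured members of each of 37 gene lists (number in brackets) called higher (red, to the right) or lower (blue, to the left) in GFD-Smo over NG-Smo tumours, in percent. Dashed lines mark the shares over all genes, 2.81% higher and 2.49% lower. Astrocyte genes lead on the right and MHC class I and II genes on the left.

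Some genes of the extracellular matrix and the vessel wall were higher in GFD-Smo tumours, and most members of these lists were not called. Of 24 extracellular matrix and adhesion genes 6 were higher and 0 lower (25% against 5.31% of all genes), with a median change of 0.40, and the count was 3 to 7 over the alternatives. The laminin receptor subunit Itga6 was at 9.54, 9.75, 9.55 and 9.75 in GFD-Smo and at 8.63, 8.28, 8.27 and 8.86 in NG-Smo tumours (change 1.14, SE 0.14, adjusted p = 0.000225). The laminin chain Lama2 was at 9.78, 9.72, 9.39 and 9.80 in GFD-Smo and at 8.71, 8.93, 8.66 and 8.26 in NG-Smo tumours (change 1.03, SE 0.13, adjusted p = 0.0003). The groups were apart for both genes, and the laminin chain Lamb1 (0.69) and the basement membrane collagens Col4a1 (0.45) and Col4a2 (0.36) were called with smaller changes.

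Of 16 fibroblast and pericyte genes 5 were called higher, against 2.81% of all genes, among them Vtn, the vitronectin gene (1.05, adjusted p = 0.012), the pericyte receptor Pdgfrb (0.74, adjusted p = 0.00603) and the collagen gene Col1a2 (0.57, adjusted p = 0.00195). That count fell to 3 when the 8 Smo arrays were fitted alone and to 0 with the replicate number as a block. In the endothelium list 1 of 13 genes was called, the VEGF receptor Kdr, with a change of 0.84 (adjusted p = 0.00628). That share of 7.69% was near the 5.31% of all genes.

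Ligands and receptors of several pathways were among the increases. Of the 27 Wnt genes 14.8% were called, against 5.31% of all genes. These were 3 ligands, which were higher, and the co-receptor Lrp6, on chromosome 6, which was lower. The count of lower members was 0 to 3 over the alternatives, and 0 without NG-Smo replicate 1 or without GFD-Smo replicate 1, 2 or 3. Wnt5a was at 8.17, 8.44, 8.04 and 8.62 in GFD-Smo and at 6.98, 7.84, 7.15 and 7.02 in NG-Smo tumours (change 1.07, SE 0.18, adjusted p = 0.00173). Wnt7a rose by 0.91 (adjusted p = 0.000226) and Wnt7b by 0.26 (adjusted p = 0.0289). Against 2.81% and 2.49% of all genes, 4 of 28 FGF and EGF genes were called higher and 0 lower. They were the receptor Fgfr3 (1.27, adjusted p = 0.000902), which is also in the astrocyte list, the receptor Erbb2 (0.84, adjusted p = 0.00102), the ligand Hbegf (0.60, adjusted p = 0.0161) and the ligand Fgf2 (0.35, adjusted p = 0.029).

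The growth factor receptors Egfr (-0.38, adjusted p = 0.377) and Fgfr1 (0.15, adjusted p = 0.632) were not called. Of 22 Notch genes the feedback regulator Nrarp (0.84, adjusted p = 0.0096) and the receptor Notch3 (0.53, adjusted p = 0.0261) were higher, 9.09% against 5.31% of all genes. Of 26 BMP and TGF-beta genes the receptor Bmpr1b was higher (0.75, adjusted p = 0.00411), a share of 3.85%, near that of all genes. The cholesterol synthesis genes Hmgcs1 (0.64, adjusted p = 0.0452) and Cyp51 (0.60, adjusted p = 0.048) were the 2 called of 13, 15.4% against 5.31% of all genes. All 13 had changes above 0.

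The smallest adjusted p of the listed genes belonged to a pair of RNA-binding proteins best known from fetal tissues. The first was Igf2bp3 (probe set 10544610). It was at 7.96, 8.25, 8.27 and 8.40 in GFD-Smo and at 6.36, 6.32, 6.28 and 6.28 in NG-Smo tumours, and all 14 other arrays lay between 6.27 and 6.43. The change was 1.91 (SE 0.07, adjusted p = 3.26e-10), against the direction of chromosome 6, where the gene lies. Its relative Igf2bp1, on chromosome 11, was at 8.05, 8.08, 8.38 and 8.06 in GFD-Smo and at 6.65, 6.87, 6.82 and 6.93 in NG-Smo tumours (change 1.33, SE 0.10, adjusted p = 3.91e-06). These 2 were listed with chromatin regulators, although they bind RNA. That list of 21 genes had 33.3% called, against 5.31% of all genes. In the rest of it the demethylase Kdm6a (0.47) and the dioxygenase Tet2 (0.43) were higher. The Polycomb genes Bmi1 (-0.44) and Ezh2 (-0.27) and the DNA methyltransferase Dnmt1 (-0.29) were lower. Ezh2 lies on chromosome 6, whose brighter genes had a median change of -0.27. The count of lower members was 0 to 5 over the alternatives, and subtracting chromosome medians was among the settings that moved it.

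Imprinted genes, of which 1 parental copy is active, gave 3 calls of 16 measured, all higher (18.8% against 5.31% of all genes). Grb10, an adaptor that restrains insulin receptor signalling, was at 10.49, 10.10, 10.26 and 9.70 in GFD-Smo and at 7.01, 9.03, 6.74 and 6.97 in NG-Smo tumours (change 2.70, SE 0.37, adjusted p = 0.000418). NG-Smo replicate 2 stood above the rest of its group, and still below all GFD-Smo arrays. Ndn, a growth suppressor of neurons, averaged 11.28 ± 0.03 in GFD-Smo and 9.36 ± 0.60 in NG-Smo tumours (change 1.92, SE 0.52, adjusted p = 0.0426), and the noncoding RNA Meg3 had a change of 1.09 (adjusted p = 0.0309). The count of the list was 1 to 4 over the alternatives. Zdbf2, also known to be imprinted but not in the list, was at 9.88, 10.06, 9.83 and 10.36 in GFD-Smo and at 6.49, 5.78, 8.51 and 5.77 in NG-Smo tumours (change 3.40, SE 0.73, adjusted p = 0.0119). The growth factor gene Igf2 was not called (0.87, adjusted p = 0.635), and NG-Smo replicate 2 had its highest level at 12.41.

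The remaining large increases had no list in common. Prm1 (probe set 10437684, chromosome 16), the protamine that packs sperm DNA, had the largest change of the named genes. It was at 11.79, 11.64, 11.59 and 11.71 in GFD-Smo and at 7.48, 7.48, 7.10 and 7.60 in NG-Smo tumours (change 4.26, SE 0.41, adjusted p = 2.56e-05), a 19.2-fold higher level. The Ptch tumours lay at 8.80 to 11.54, all above the NG-Smo arrays and below the GFD-Smo arrays. Pieces of the mouse protamine gene serve in some transgenes as a polyadenylation signal, the transgene sequences are not given in the sources used here, and whether these probes read one was not tested.

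Gpr50, an X-linked relative of the melatonin receptors, was at 11.24, 11.18, 11.31 and 10.88 in GFD-Smo and at 6.88, 6.64, 9.68 and 7.06 in NG-Smo tumours (change 3.59, SE 0.70, adjusted p = 0.00613). NG-Smo replicate 3 was the high array of its group. Mtx2, a mitochondrial import protein, was at 10.39, 10.32, 10.55 and 10.16 in GFD-Smo and at 7.71, 7.21, 7.32 and 7.30 in NG-Smo tumours (change 2.97, SE 0.66, adjusted p = 0.0145). Terc, the RNA template of telomerase, was at 10.44, 10.60, 10.94 and 10.09 in GFD-Smo and at 8.45, 8.27, 7.59 and 8.04 in NG-Smo tumours (change 2.43, SE 0.44, adjusted p = 0.00319). The groups were separate for both genes. Mgat4c, a glycosyltransferase (2.13, adjusted p = 0.00112), and Greb1l (2.10, adjusted p = 0.00042) complete the 15.

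The MHC class II list had the lowest median change of the 37 lists. The class II molecules H2-A and H2-E present peptides on dendritic cells, B cells and activated macrophages and microglia. Their promoters carry an X box and a Y box that bind the RFX and NF-Y factors, on which the coactivator Ciita acts. Of the 8 measured genes 3 were lower and 0 higher (37.5%, against 2.49% of all genes called lower), with a median change of -0.77. The count was 5 without NG-Smo replicate 2, and also with array weights, with the 8 Smo arrays alone and without the transplanted tumour. Promoter windows in the RefSeq table of GRCm38.p6 were available for H2-Aa, H2-Eb1, H2-Oa, H2-Ob, H2-DMa, H2-DMb1 and H2-DMb2, and not for H2-Ab1 and Cd74. By the letters given below, H2-Oa held only the Y box and H2-Ob only the X box. H2-DMa, H2-DMb1 and H2-DMb2 held neither. The promoters of H2-Aa and H2-Eb1, which hold both boxes, are shown because H2-Aa had the largest decrease of the list and H2-Eb1 shares its promoter boxes. H2-Aa lies on the minus strand at chr17:34287774-34288073 and H2-Eb1 on the plus strand at chr17:34305617-34305916, each a window of 300 bases around the start site. Capitals mark the X box core CTNGCAAC, whose letters were read from these promoters, and then the Y box CTGATTGG.
H2-Aa: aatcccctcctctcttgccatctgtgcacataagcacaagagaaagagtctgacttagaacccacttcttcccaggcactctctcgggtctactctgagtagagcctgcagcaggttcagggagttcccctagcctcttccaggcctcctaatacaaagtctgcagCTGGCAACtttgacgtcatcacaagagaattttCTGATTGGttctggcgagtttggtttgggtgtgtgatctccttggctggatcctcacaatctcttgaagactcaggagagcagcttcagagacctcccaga
H2-Eb1: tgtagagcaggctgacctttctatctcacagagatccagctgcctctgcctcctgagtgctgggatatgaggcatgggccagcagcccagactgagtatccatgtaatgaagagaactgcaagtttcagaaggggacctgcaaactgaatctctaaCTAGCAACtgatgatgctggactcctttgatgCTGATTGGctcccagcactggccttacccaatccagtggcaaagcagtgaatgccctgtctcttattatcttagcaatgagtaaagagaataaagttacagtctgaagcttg
On both strands, the Y box letters were in 4.1% and the X box letters in 3.42% of 32851 promoter windows of this length, and both were in 59 windows (0.18%). The motifs do not overlap, and a match is a description of the letters only. Since the X box letters were read from the promoters shown, their match to it was fixed in advance.

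H2-Aa itself (probe set 10450154) was at 5.95, 5.75, 5.70 and 5.99 in GFD-Smo tumours and at 10.18, 8.43, 9.30 and 9.76 in NG-Smo tumours. Its lowest level in the other 14 arrays was 8.0, so the 4 GFD-Smo arrays stood alone (change -3.57, SE 0.41, adjusted p = 0.000109). Cd74, the invariant chain that guides class II molecules, was at 7.05, 6.77, 6.72 and 6.84 in GFD-Smo and at 9.11, 7.42, 8.62 and 9.99 in NG-Smo tumours (change -1.94, SE 0.42, adjusted p = 0.0122). With the replicate number as a block its adjusted p was 0.0561. The beta chain gene H2-Ab1 was at 6.79, 6.62, 6.61 and 6.63 in GFD-Smo and at 8.12, 7.03, 8.16 and 8.72 in NG-Smo tumours (change -1.34, SE 0.30, adjusted p = 0.0154). H2-Eb1 was at 7.89, 7.51, 7.96 and 7.99 in GFD-Smo and at 9.13, 8.16, 8.61 and 9.05 in NG-Smo tumours, without overlap, and its change of -0.90 missed the threshold (SE 0.25, adjusted p = 0.0515). Ciita averaged 6.92 ± 0.06 in GFD-Smo and 6.99 ± 0.20 in NG-Smo tumours (change -0.07, 95% interval -0.26 to 0.12, adjusted p = 0.868).

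Changes in the MHC class I list were smaller. Of 9 measured genes 4 were lower and 0 higher (44.4%, against 2.49% of all genes called lower), with a median change of -0.28. These were Psmb8, a subunit of the immunoproteasome (-0.58, SE 0.06, adjusted p = 5.45e-05), its partner Psmb9 (-0.37), the peptide transporter Tap1 (-0.46) and H2-Q4 (-0.82), a class I gene with near-identical relatives whose signal is uncertain for that reason. All 4 lie on chromosome 17, on which NG-Smo replicates 2 and 3 were raised. With chromosome medians subtracted 2 of the 4 were called, and with the replicate block 1 was. Of 13 interferon response genes 0 were called by limma over all genes and 5 had an unadjusted p under 0.05, as had 15.9% of all genes. All 13 had changes below 0 (median -0.42), and in 9 of them the GFD-Smo arrays all lay below the NG-Smo arrays, as in 6.59% of all genes.

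In the macrophage and monocyte list 3 of 15 genes were lower, against 2.49% of all genes, and 0 were higher, with a median change of -0.21. The summed level was 12.06 to 12.49 in GFD-Smo and 13.09 to 13.49 in NG-Smo arrays. Bright genes weigh most in this sum, and Lyz2 averaged 10.51 in GFD-Smo and 12.30 in NG-Smo tumours. Lyz2, the lysozyme of macrophages, was at 11.04, 10.14, 10.46 and 10.39 in GFD-Smo and at 12.35, 12.49, 12.14 and 12.21 in NG-Smo tumours (change -1.79, SE 0.25, adjusted p = 0.000558). Ms4a7, a membrane protein of macrophages, was at 8.29, 7.88, 7.94 and 8.19 in GFD-Smo and at 9.51, 9.93, 9.67 and 9.11 in NG-Smo tumours (change -1.48, SE 0.21, adjusted p = 0.000688). Neither gene's ranges overlapped, and the scavenger receptor Msr1 was lower as well (-1.26, adjusted p = 0.0126).

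Of 17 homeostatic microglia genes Gpr34 was called higher (0.36, adjusted p = 0.0186) and Aif1 lower (-0.35, adjusted p = 0.0309), 11.8% against 5.31% of all genes. Cybb, the catalytic subunit of the phagocyte oxidase, was at 8.97, 8.41, 8.57 and 8.73 in GFD-Smo and at 10.60, 10.35, 10.36 and 10.35 in NG-Smo tumours (change -1.75, SE 0.14, adjusted p = 6.48e-06). Others among the 15 largest decreases were Atp6v0d2, part of a proton pump of osteoclasts and macrophages (-1.86, adjusted p = 0.0138), Gpnmb, a glycoprotein of lipid-laden macrophages on chromosome 6 (-1.85, adjusted p = 0.00872), and Aoah, which inactivates bacterial lipopolysaccharide (-1.69, adjusted p = 0.0022). Wfdc17, a small secreted protein, was at 8.93, 7.73, 8.08 and 8.38 in GFD-Smo and at 11.59, 11.55, 12.11 and 10.73 in NG-Smo tumours (change -3.21, SE 0.41, adjusted p = 0.000273).

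Lcn2, Trf and Cp were also among the 15 largest decreases. Lcn2 (probe set 10481627, chromosome 2), a lipocalin that binds iron carriers of bacteria, had the largest decrease. It was at 7.10, 7.0, 6.35 and 6.45 in GFD-Smo and at 10.96, 11.83, 9.68 and 11.08 in NG-Smo tumours, with all 10 Ptch arrays at 8.57 to 11.77 (change -4.16, SE 0.54, adjusted p = 0.000312), a 17.9-fold lower level. Trf, the iron carrier transferrin, was at 10.09, 9.95, 10.06 and 9.77 in GFD-Smo and at 12.04, 11.55, 11.92 and 12.21 in NG-Smo tumours (change -1.96, SE 0.24, adjusted p = 0.000189). Cp, the copper enzyme ceruloplasmin that oxidises iron, was at 9.46, 9.04, 8.96 and 9.11 in GFD-Smo and at 10.95, 11.15, 10.66 and 11.13 in NG-Smo tumours (change -1.83, SE 0.34, adjusted p = 0.00459). The groups were well apart in all 3 genes. Transferrin is also a gene of oligodendrocytes, whose list gave 0 calls and had 9 of 12 changes below 0. The part of these cells in the level of Trf was not tested.

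Lymphocyte genes gave 0 calls of 16 by limma, with 4 at an unadjusted p under 0.05. Jchain, which joins antibody chains in plasma cells, was at 5.49, 5.48, 5.52 and 5.45 in GFD-Smo and at 9.23, 5.61, 7.36 and 6.70 in NG-Smo tumours. The 10 Ptch arrays lay at 5.40 to 5.68, a range that also holds NG-Smo replicate 2, and the call (adjusted p = 0.0441) was lost in 16 of 26 alternatives. Adamdec1, a protease of macrophages and dendritic cells, was at 6.27, 6.30, 6.33 and 6.30 in GFD-Smo and at 9.12, 6.42, 9.44 and 8.25 in NG-Smo tumours (change -2.01, SE 0.46, adjusted p = 0.0173). It likewise rests on 3 of the 4 NG-Smo arrays, and its adjusted p was 0.0554 without NG-Smo replicate 1, 0.0891 with the 8 Smo arrays alone and 0.104 with the replicate block. Of 15 complement genes the protease C1s1, on chromosome 6, and the C1 inhibitor Serping1 were lower (-0.91 and -0.85). That was 13.3% of the list, against 5.31% of all genes.

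Few genes of cell division were called. Of 19 mitosis genes 0 were called by limma and 0 had an unadjusted p under 0.05, with a median change of -0.07, and Mki67, a marker of dividing cells, averaged 12.27 ± 0.02 in GFD-Smo and 12.41 ± 0.08 in NG-Smo tumours (change -0.14, 95% interval -0.33 to 0.05, adjusted p = 0.515). In the S phase list 1 of 20 was lower (5.0% against 5.31% of all genes), the helicase subunit Mcm2 on chromosome 6 (-0.48, adjusted p = 0.00677). Of 10 p53 targets 2 were lower, against 2.49% of all genes. They were Sesn2, a stress sensor (-0.74, adjusted p = 0.0228), and Zmat3, an RNA-binding protein (-0.52, adjusted p = 0.0341). In the hypoxia and glycolysis list the 1 call of 13 was Hk2, a hexokinase on chromosome 6 (-0.71, adjusted p = 0.000246). That was 7.69% of the list, near the 5.31% of all genes. The other lists gave 0 calls of 13 IGF genes (2 at an unadjusted p under 0.05) and of 9 sex-linked genes (0). The rest of these lists had 1 call each, against 5.31% of all genes. Lower were Lhx2 of 24 patterning genes, Irf8 of 11 dendritic cell genes and Rarres2, on chromosome 6, of 8 ependymal genes. Klra2, of 15 genes known to vary between mouse strains, was lower as well, and Alas2 of 2 erythrocyte genes was higher.

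The last comparison asked whether GFD and NG tumours differed in the same way in Smo and in Ptch mice. The contrast between the 2 GFD-Ptch and the 4 NG-Ptch arrays shares no array with the Smo contrast, and it called 2 genes (0.01%), Vopp1 and Zdhhc2, named after their values were seen, against 3375 at an unadjusted p under 0.05. The difference between the contrasts called 759 genes (3.81%), 479 positive (2.4%) and 280 negative (1.4%). With median centring of the arrays the split was 488 to 170. Y-linked transcripts were present in both GFD-Ptch arrays and in 0 of the 4 NG-Ptch arrays, and with the Y-linked level as a covariate 159 genes were called.

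**Figure D4:**
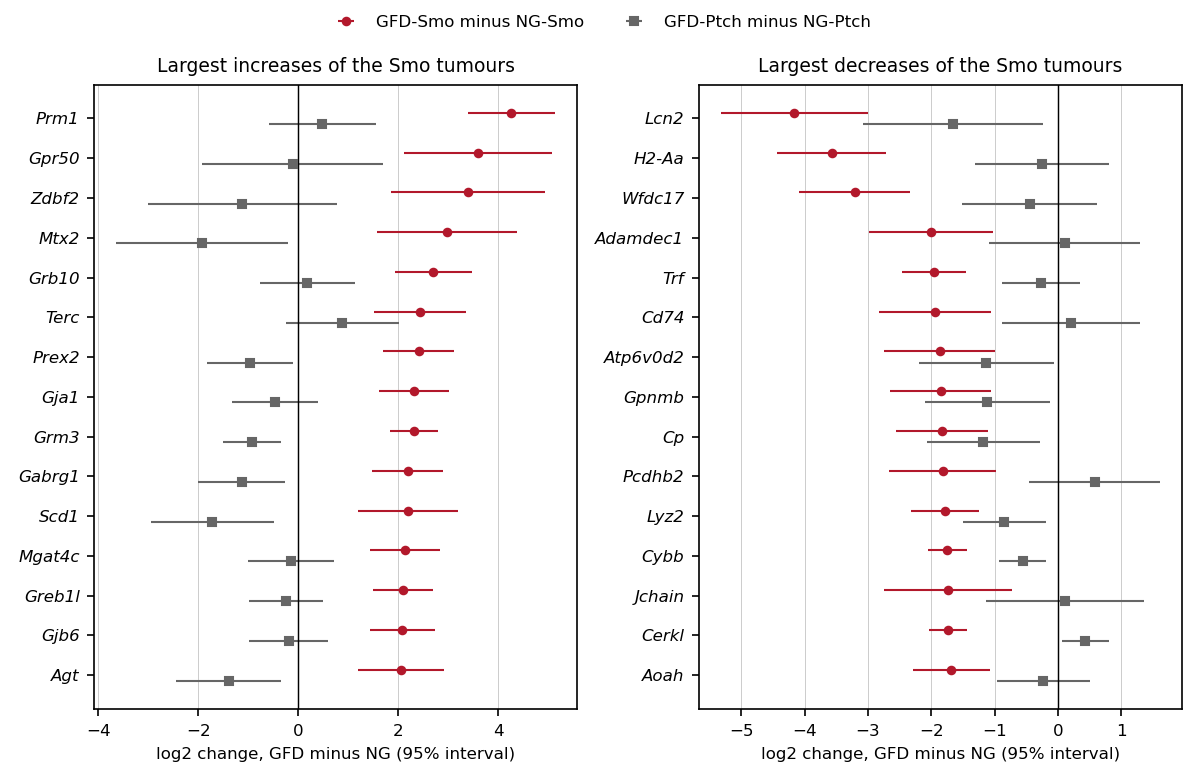
Log2 change of GFD minus NG (horizontal axis, with 95% intervals) in Smo tumours (red circles) and in Ptch tumours (grey squares) for the 30 genes named by rule. In the Smo contrast no interval reaches 0, as the choice of the genes fixes. In the Ptch contrast 17 intervals include 0, 12 lie below it, 6 of them among the genes higher in GFD-Smo and 6 among those lower, and that of Cerkl lies above it.

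Astrocyte genes parted most often between the contrasts, with 13 of 19 called positive and 0 negative in the difference, against 2.4% and 1.4% of all genes. Aqp4 had a change of 1.89 in Smo tumours and of -1.83 in Ptch tumours (difference 3.72, SE 0.55, adjusted p = 0.00213). Aldoc had a change of 1.98 in Smo and of -2.40 in Ptch tumours (difference 4.39, SE 1.05, adjusted p = 0.0311), and Scd1 one of 2.19 in Smo and of -1.72 in Ptch tumours (difference 3.90, SE 0.74, adjusted p = 0.0101). Mtx2 had the largest difference of the named genes, at 2.97 in Smo and -1.92 in Ptch tumours (difference 4.89, SE 1.04, adjusted p = 0.0174). Hhip was higher in GFD-Smo (1.14), with a change of -1.19 in Ptch tumours (difference 2.33, SE 0.44, adjusted p = 0.00907).

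Some of the decreases were shared in sign. In Ptch tumours the change was -1.66 for Lcn2, -1.18 for Cp, -1.12 for Gpnmb and -0.85 for Lyz2, with 0 of these 4 called there, and their differences between the contrasts did not pass the test. On the negative side of the difference were H2-Aa, with changes of -3.57 in Smo and -0.25 in Ptch tumours (difference -3.32, SE 0.64, adjusted p = 0.0108), and Cerkl, a relative of ceramide kinase. Cerkl was at 7.29, 7.50, 7.36 and 7.28 in GFD-Smo and at 9.55, 8.90, 8.91 and 9.02 in NG-Smo tumours, and the other arrays lay at 8.80 or above. Its changes were -1.73 in Smo and 0.43 in Ptch tumours (difference -2.17, SE 0.22, adjusted p = 0.00027). The transcription factor gene Tbx15 (difference -2.97, adjusted p = 0.0448) and the secreted protein gene Crispld1 (difference -2.18, adjusted p = 0.0424) were the others named by rule, beside Wfdc17 and Pcdhb2. Several of these calls depended on the setting. Of the 12 genes named for the difference, Prm1, Aqp4 and Cerkl kept the call in all 25 alternatives. Mtx2, Scd1 and H2-Aa lost it in 3 each, with either sex covariate and without 1 of the GFD-Ptch arrays (adjusted p of 0.0602 to 0.131). Wfdc17 lost it in 9, Aldoc in 12, Zdbf2 in 15, Crispld1 in 16, Pcdhb2 in 17 and Tbx15 in 18, with adjusted p of up to 0.175. Of the 280 negative calls 116, or 41.43%, were on chromosome 6, where the GFD-Smo and GFD-Ptch arrays deviated in opposite directions.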

How the data were processed

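RNA from 18 mouse medulloblastomas was hybridised to Affymetrix Gene ST 1.0 arrays, per the labels' protocols. The deposited values are on a log2 scale, for 35556 probe sets, with the base read from the values. The authors used Partek 6.6, per the submitters' processing notes. Background correction, probe summary and scaling between arrays are not given in the sources used here, and array medians were 7.736 to 7.868. All value columns were mapped to samples by title.

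Probe sets with exactly 1 gene symbol in the platform's annotation (21789, while 1621 had several and 12146 none) were kept, and the one with the highest mean stood for its gene, which left 19938 genes with no filter on dim genes. The fit used limma 3.58.1 (R 4.3.3) on all 18 arrays, 1 mean per group over 5 groups, 13 residual and 2.448 prior degrees of freedom and two-sided tests with Benjamini-Hochberg adjustment over all genes. Genes called had an adjusted p under 0.05. Brighter genes, for the chromosome medians, had a mean above 7.803, the median of all values. A list's summed level is log2 of the sum of its members' linear values. On data simulated for this contrast over 19938 genes, 74.6%, 92.5% and 100% of genes changed by 0.5, 1 and 2 on the log2 scale were called, with 14 false among 192 calls. The simulation drew independent normal noise with 1 spread per gene shared by all groups. In the real arrays the spread differed between groups and genes of a chromosome shifted together, so these rates may not hold for them.

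Genes were named by rule. It took the 15 largest increases and 15 largest decreases that were called, changed by at least 1 and did not overlap between groups, and the 6 largest differences each way between Smo and Ptch tumours. Sex-linked genes, unnamed loci, olfactory receptors and antigen receptor segments were left out of it. A fixed set of 13 genes and up to 6 members of each of the 37 gene lists could also be named. Called members beyond these, where a list had few, were named after their values were seen. The lists held 627 different genes, 569 of them measured. The comparison, the lists and the rule were chosen with earlier results of these data known. Precision is limited by the number of arrays. Alternatives were another scaling, the mean of a gene's probe sets, a filter on dim genes, array weights, sex covariates, a replicate block, another prior, the 8 Smo arrays alone and leaving out arrays. Plots were drawn with matplotlib 3.10.9 in Python 3.11.15.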

Additional observations from a re-analysis of the deposited data

Results flagged for a closer look

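In 10 of 134 groups of 4 values looked at, 1 array lay far from the rest of its group by Dixon's criterion, and chance gives about 1 in 20. NG-Smo replicate 3 was high for Gpr50 at 9.68 and low for Gpnmb at 10.11. NG-Smo replicate 2 was high for Grb10 at 9.03 and low for Mgat4c at 5.85. NG-Smo replicate 1 was high for Cybb at 10.60. GFD-Smo replicate 4 was high for Scd1 at 11.37 and for Atoh1 at 12.14, and GFD-Smo replicate 2 was low for Aqp4 at 12.19. The chromosome medians set apart were -0.00 on chromosome 9 in GFD-Smo replicate 3 and -0.03 on chromosome 14 in GFD-Smo replicate 1.

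For 25 of 47 named genes the change of GFD over NG tumours differed between Smo and Ptch mice by limma's test of the difference, at an adjusted p under 0.05 over all genes. Many of these genes were named for this difference or for the Smo change it contains. The positive differences were 4.89 for Mtx2, 4.51 for Zdbf2, 4.39 for Aldoc, 3.90 for Scd1, 3.78 for Prm1 and 3.72 for Aqp4. They were 3.45 for Agt, 3.38 for Prex2, 3.32 for Gabrg1, 3.23 for Grm3, 2.78 for Gja1, 2.52 for Grb10 and 2.34 for Greb1l. Smaller ones were 2.33 for Hhip, 2.28 for Gjb6, 2.27 for Mgat4c and 1.88 for Gfap. The negative differences were -3.32 for H2-Aa, -2.97 for Tbx15, -2.76 for Wfdc17, -2.40 for Pcdhb2, -2.18 for Crispld1, -2.17 for Cerkl, -1.69 for Trf and -1.19 for Cybb.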

How the results depend on the processing

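The 1058 calls between GFD-Smo and NG-Smo tumours became 1740 with array weights, 682 with the replicate block within the 8 Smo arrays and 672 with GFD-Smo replicates 1 and 3 averaged. They became 1553 without the transplanted tumour, and leaving out 1 GFD or NG array gave 643 to 1069. Whether the replicate numbers pair the arrays is not known. Deviations of same-numbered arrays from their group means had correlations of 0.086, -0.278, -0.210 and 0.014, which cannot show whether they shared a batch. The block kept 50.6% of the calls. The 759 calls of the difference between Smo and Ptch tumours became 1285 without the transplanted tumour, 1484 with array weights, 188 with the gender label as a covariate, 159 with the Y-linked level and 473 with GFD-Smo replicates 1 and 3 averaged. Leaving out 1 GFD or NG array gave 248 to 823 there, the fewest without GFD-Ptch replicate 2 (248) and replicate 1 (394). Other low counts were 457, 424 and 503 without NG-Ptch replicates 1, 2 and 5, and 457, 444 and 447 without GFD-Smo replicates 1, 2 and 3. The cause of these low counts was not tested. Of the 30 named genes 27 kept their call in all of the alternatives that gave a value, 3 (Adamdec1, Cd74 and Jchain) lost it in at least 1, and 0 changed sign. Averaging GFD-Smo replicates 1 and 3 and subtracting chromosome medians were chosen after the data were seen.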

Other observations

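The Pcdhb genes encode a cluster of protocadherins, adhesion molecules that give neurons a surface identity, and were chosen after their values were seen. Of 22 measured members 10 were called lower in GFD-Smo tumours and 0 higher, against 2.49% and 2.81% of all genes, with changes from -1.82 to 0.08 and a median of -0.70. The family has near-identical copies, so the value of any single member is uncertain. Pcdhb2 was at 7.30, 7.39, 7.41 and 7.40 in GFD-Smo and at 9.24, 8.43, 9.38 and 9.75 in NG-Smo tumours. In the difference between Smo and Ptch tumours 4 of the 22 were called negative, against 1.4% of all genes.

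Xist, the noncoding RNA that silences 1 X chromosome in female cells, was at 13.12, 7.02, 12.98 and 13.18 in GFD-Smo tumours and at 7.21, 10.60, 6.6 and 11.18 in NG-Smo tumours. Y-linked levels in the same order were 5.48, 10.05, 5.48 and 5.45 in GFD-Smo tumours and 9.93, 5.47, 9.88 and 5.47 in NG-Smo tumours. Xist was not called by limma (change 2.68, adjusted p = 0.429). The Y-linked level served as a covariate in an alternative.

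Hoxb2, a hindbrain patterning gene, stood at 8.20 in GFD-Smo replicate 2, against 7.03, 7.07 and 7.03 in the other GFD-Smo arrays and 6.96 to 7.05 in NG-Smo arrays. The same array had the highest Ttr level.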
